A study of Mus musculus with 14 samples.

Results

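The 7 genes described here, Procr, Esam, Slamf1, Cd48, Prom1, Eng and Tek, encode cell surface molecules used to recognise blood-forming stem cells or to tell them from their progeny. Members were taken as every probe set that the platform annotation of the Affymetrix Mouse Genome 430 2.0 array gives to 1 of these symbols, which found 10 probe sets, 3 for Slamf1, 2 for Eng and 1 for each of the other genes. They stand among 45037 mouse probe sets on the array, and the 7 genes among 18193 genes that have a probe set of their own. Where a gene had several probe sets, the one with the highest mean log2 intensity over all arrays stood for the gene.

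RNA came from sorted mouse bone marrow cells and from cells grown in culture, all on a mixed B6/129 background, with 7 groups of 2 arrays. Wild-type (WT) LSK and CMP were from Tet2+/+ Mx+ mice, and the knockout (KO) groups of the same populations from Tet2-/- Mx+ littermates, both sorted 4 weeks after pIC injection. In LSK and CMP both genotypes therefore carried Mx+ and had received pIC. It is the RNA mimic whose interferon response switches on Mx1-Cre in blood cells and in other interferon-responsive cells. The labels do not say when GMP were sorted or whether mice were pooled. LSK cells lacked lineage markers and bore c-Kit and Sca1, the compartment that holds the stem cells. CMP, common myeloid progenitors, carried c-Kit and CD34 without Sca1 and with low Fc gamma receptor. GMP, granulocyte-macrophage progenitors, had high Fc gamma receptor instead. The last group was Tet2-deficient LSK sorted for CD150 and passed through 5 rounds of colony culture, called replated below, and no replated WT cells were analysed here. CD150 is the product of Slamf1, so for this gene that sort used the protein of a member. Nothing in the labels ties the 2 arrays of any group to different animals or cultures, so the p-values measure the spread between these samples, which may be technical.

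Each marker belongs to a known system. CD150 (Slamf1) and CD48 are receptors of the SLAM family, whose members bind one another between blood cells, and mouse stem cells are commonly isolated as CD150+ CD48- cells. EPCR (Procr) binds protein C, ESAM is an adhesion molecule of the immunoglobulin family shared with endothelium, and endoglin (Eng, CD105) is a co-receptor for TGF-beta and BMP ligands. Tek encodes TIE2, the receptor tyrosine kinase for angiopoietins, and Prom1 encodes prominin 1 (CD133), a membrane glycoprotein of cell protrusions that is a stem cell marker mainly in human blood.

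The sequences just upstream of Procr, Eng and Slamf1 are shown because Procr has the steepest fall from LSK to GMP among the members, and Eng and Slamf1 are the members whose KO values lay farthest above WT for their error. They are RefSeq windows of assembly GRCm38.p6 that end before the annotated start of the gene. Capitals mark matches on either strand to short letter patterns used for 3 families of blood cell regulators. These are GATAA for GATA factors, GGAAG for ETS factors and TGNGGT, a loose pattern with any letter at N, for RUNX factors. The TGNGGT match of Procr reads TGAGGT on the other strand and that of Eng TGGGGT, and neither is taken as a RUNX core.
Procr, chr2:155750967-155751124, + strand: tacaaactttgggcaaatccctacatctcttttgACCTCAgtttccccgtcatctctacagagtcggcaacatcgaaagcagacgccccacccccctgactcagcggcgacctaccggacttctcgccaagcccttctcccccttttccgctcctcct
Eng, chr2:32646345-32646594, + strand: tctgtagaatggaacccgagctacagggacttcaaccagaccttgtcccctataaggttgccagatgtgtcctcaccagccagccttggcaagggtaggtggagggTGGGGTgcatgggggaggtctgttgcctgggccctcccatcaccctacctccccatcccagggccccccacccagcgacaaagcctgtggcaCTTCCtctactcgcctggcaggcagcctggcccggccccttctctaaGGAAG
Slamf1, chr1:171766882-171767130, + strand: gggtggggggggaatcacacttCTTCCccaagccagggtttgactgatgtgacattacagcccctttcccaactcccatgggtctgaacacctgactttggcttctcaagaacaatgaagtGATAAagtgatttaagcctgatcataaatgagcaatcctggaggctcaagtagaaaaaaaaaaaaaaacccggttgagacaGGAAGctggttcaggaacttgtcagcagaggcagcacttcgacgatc
The Slamf1 window held 1 GATAA and 2 GGAAG matches, and 22.5% and 63.9% of 32851 mouse promoter windows of that length hold 1 or more of each. Eng had 2 GGAAG matches and 1 TGNGGT match, and 64.1% and 40.1% of windows of its length hold 1 or more. Procr had 1 TGNGGT match, and 28.2% of windows of its length hold 1 or more. Such matches are letters in a window and not measured sites, and no binding was measured here. The windows of Cd48, Prom1 and Tek are not printed, and Esam had no window in the set.

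Intensities are on the linear scale the authors deposited, with the median probe set of each array between 31.2 and 33.0. A floor was set on every array at its highest Bacillus subtilis control probe set, 20.8 to 27.8, and a value at or under it is treated as a limit. Differences are log2 differences ± SE from 1 limma fit of all 14 arrays over 45037 probe sets, with p-values adjusted by the Benjamini-Hochberg method over all of them, and a gene is called changed at an adjusted p below 0.05. All RNA was from bulk cells, so fewer cells of a type and less RNA per cell cannot be told apart. Correlations between the 2 arrays of a group ran from 0.9612 in KO LSK to 0.9928 in replated cells over all mouse probe sets. The sorted KO arrays carried the pattern of female mice and the WT arrays that of male mice: Xist, the X-inactivation RNA, was 5011 to 6590 in the KO LSK, CMP and GMP groups and 21.3 to 28.1 in the WT groups. The Y-linked gene Eif2s3y was 894 to 1158 in WT and 7.29 to 11.2 in sorted KO, below the floor. Replated KO cells had the male pattern, with Xist at 20.1, below the floor, and Eif2s3y at 2069.5. Sex and genotype therefore cannot be told apart in any KO against WT value of sorted cells, and the replated cells differ in sex from the KO LSK they are set against.

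**Figure D1:**
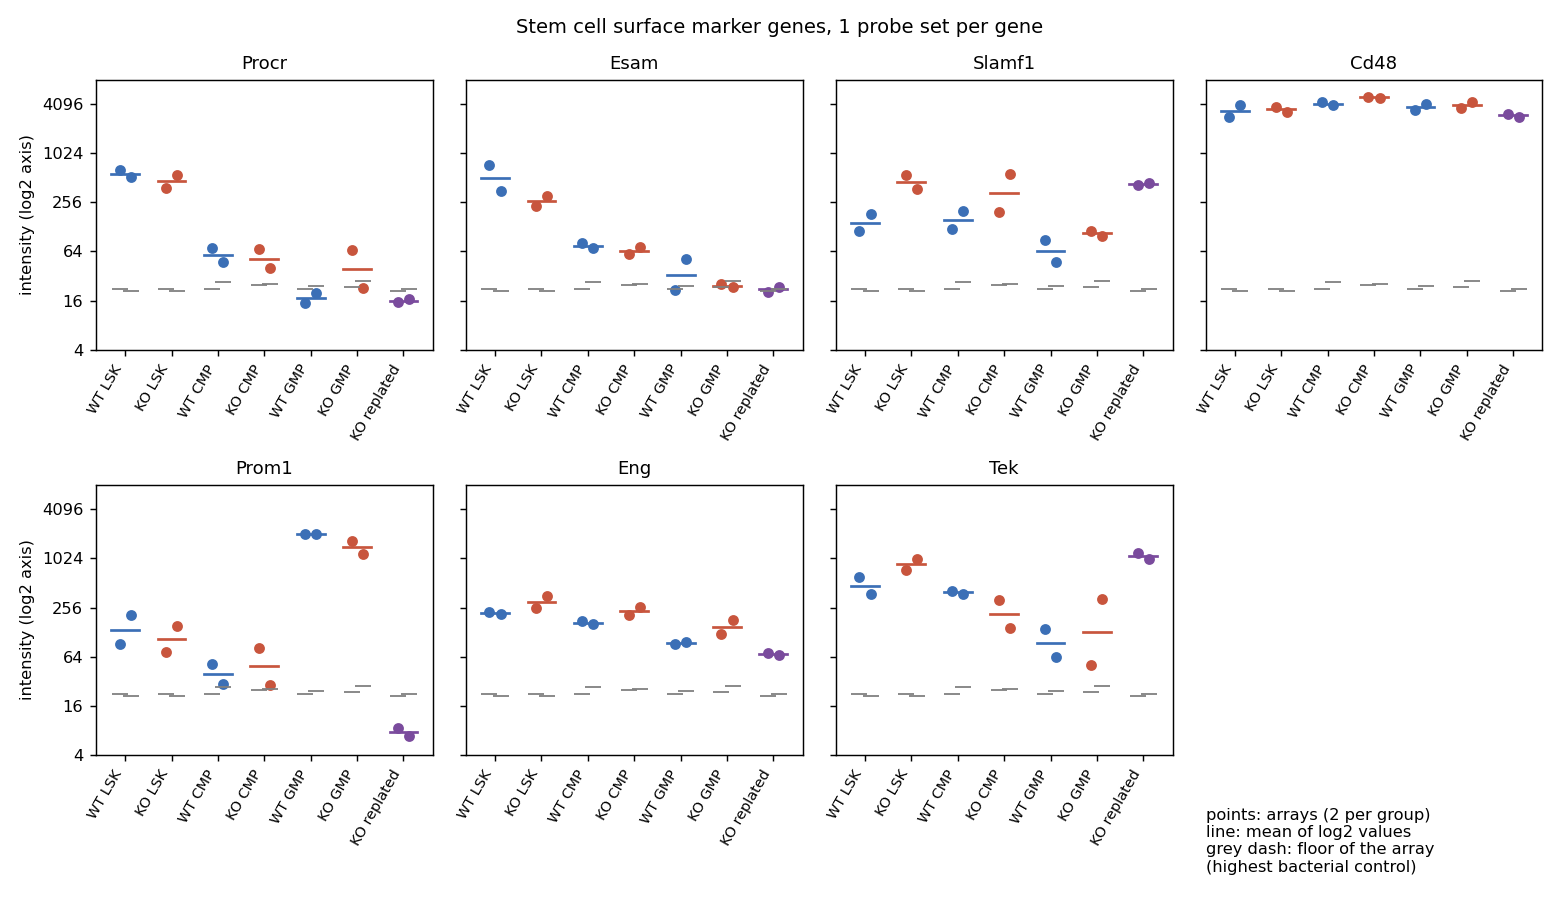
Intensity (log2 axis) of the representative probe set of each marker gene in the 7 groups of 2 arrays, with the mean of log2 values as a line and the floor of each array in grey. Procr and Esam are highest in LSK and near the floor in GMP and replated cells, and Prom1 peaks in GMP above 1176. Tek has its highest mean in replated cells, at 1003 and 1188, with KO LSK 2 almost level at 1002.

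Procr fell most steeply along the myeloid path. It measured 644 and 519 in WT LSK, 70.8 and 48.1 in WT CMP, and 14.7 and 19.8 in WT GMP. All 3 WT groups were separate, and both GMP arrays were at or below the floor. In KO cells it measured 386 and 562 in LSK, 67.8 and 40.3 in CMP, and 66.8 and 22.8 in GMP, so the KO GMP arrays disagreed by more than the KO CMP arrays did. From WT LSK to WT CMP it changed by -3.31 ± 0.48 log2 units, 9.91-fold, with an adjusted limma p of 0.0182. Between WT LSK and WT GMP the fall was at least 24.8-fold (adjusted limma p 0.000877). The KO fall from LSK to CMP was -3.16 ± 0.48 (adjusted limma p 0.0301) and that from LSK to GMP was -3.58 ± 0.48 (11.9-fold, adjusted limma p 0.00509), with 1 of 2 KO GMP arrays at or below the floor. The WT call from LSK to CMP ended without WT LSK 1, WT CMP 1 or WT CMP 2 (adjusted limma p up to 0.115), and the KO call without KO LSK 2, KO CMP 2, either WT CMP array or either replated array (adjusted limma p up to 0.121).

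Esam followed Procr. It measured 747 and 351 in WT LSK, 81.2 and 70.0 in WT CMP, and 21.6 and 51.2 in WT GMP. KO LSK gave 230.2 and 303, KO CMP 59.4 and 72.3, and KO GMP 25.4 and 23.3. As for Procr, WT LSK had the highest mean, then KO LSK, WT CMP and KO CMP, and the GMP and replated groups had values at or below the floor and are not ordered. The fall from WT LSK was 6.79-fold to WT CMP (log2 -2.76 ± 0.43, adjusted limma p 0.0249) and 15.4-fold to WT GMP (log2 -3.94 ± 0.43, adjusted limma p 0.00157), where 1 of 2 arrays was at the floor. In KO cells the fall from LSK to GMP was 10.9-fold (adjusted limma p 0.00376), with 1 of 2 KO GMP arrays at or below the floor, and the difference to CMP, -2.01 ± 0.43, did not pass (adjusted limma p 0.0902). Leaving out any 1 of 7 arrays, among them WT LSK 1 and both WT CMP arrays, ended the call of WT Esam from LSK to CMP, with adjusted limma p up to 0.139. Across the 12 sorted arrays Procr and Esam had a Pearson correlation of 0.9221, which describes arrays that share their populations and is no test.

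Eng, the endoglin gene, declined more gently. Its representative probe set measured 224 and 215 in WT LSK, 174 and 160.2 in WT CMP, and 90.8 and 98.1 in WT GMP. KO LSK gave 254 and 357, KO CMP 208 and 257, and KO GMP 122 and 182. No WT group overlapped the next. From WT LSK to WT GMP it changed by -1.22 ± 0.22 (2.33-fold, adjusted limma p 0.0181), and from KO LSK to KO GMP by -1.01 ± 0.22 (2.02-fold, adjusted limma p 0.0392). The WT call ended without WT LSK 1, WT GMP 1 or WT GMP 2, with adjusted limma p up to 0.0883. The KO call ended without 10 of the 14 arrays in turn and under quantile normalization (adjusted limma p 0.0642). On the other Eng probe set the KO difference was -1.90 ± 0.42 (adjusted limma p 0.0377) and the WT one -0.83 ± 0.42 (adjusted limma p 0.364).

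Prom1 ran the other way. It measured 92.4 and 205 in WT LSK, 52.5 and 29.7 in WT CMP, and 2037 and 2068 in WT GMP. KO LSK gave 72.9 and 153, KO CMP 82.4 and 28.9, and KO GMP 1683 and 1176.5. GMP of both genotypes stood far above every other group, and the LSK and CMP arrays overlapped in KO but not in WT. The rise from WT CMP to WT GMP was 52.0-fold (log2 5.70 ± 0.58, adjusted limma p 0.0062) and the one from KO CMP to KO GMP 28.8-fold (log2 4.85 ± 0.58, adjusted limma p 0.0126). GMP exceeded LSK 14.9-fold in WT (adjusted limma p 0.00656) and 13.3-fold in KO (adjusted limma p 0.00965). Both KO calls ended without KO GMP 1, at adjusted limma p 0.0965 against CMP and 0.0724 against LSK, and the one against CMP also without KO GMP 2, at adjusted limma p 0.0587. So the RNA of this gene did not mark the stem-cell-containing population in these mouse sorts. Its place as a stem cell marker is mainly in human blood.

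Cd48, whose protein is absent from the purest stem cells, was high in all groups. It measured 2866 and 4003 in WT LSK, 4330 and 4017 in WT CMP, and 3438 and 4121 in WT GMP. KO LSK gave 3755 and 3338, KO CMP 5066 and 4911, and KO GMP 3729.8 and 4309. No step between populations within a genotype passed the test, and the interval of WT GMP minus WT LSK ran from -0.26 to 0.57 log2 units. LSK is a mixed compartment, and its CD48- cells were not profiled on their own.

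Tek, the angiopoietin receptor gene, was variable. It measured 605 and 371 in WT LSK, 414 and 379.9 in WT CMP, and 138 and 63.9 in WT GMP. KO LSK gave 748 and 1002, KO CMP 313 and 146, and KO GMP 50.4 and 326. The 2 KO GMP arrays lay on either side of both WT GMP arrays. Against LSK, GMP values were -2.33 ± 0.77 log2 units in WT (adjusted limma p 0.151) and -2.76 ± 0.77 in KO (adjusted limma p 0.0881), and neither passed. Its SE was the largest among the representative probe sets.

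Slamf1 differed between its probe sets in level but not in order of the top groups. The representative probe set measured 113 and 183 in WT LSK, 120.1 and 199.6 in WT CMP, and 87.9 and 47.0 in WT GMP. KO LSK gave 557 and 370.1, KO CMP 194 and 571, and KO GMP 113 and 100.3. WT LSK and WT CMP overlapped almost completely, while every KO LSK array was above every WT array. On the second probe set WT LSK gave 31.5 and 27.0 and KO LSK 141 and 87.4, with KO CMP at 61.7 and 59.6 and WT CMP at 42.7 and 32.2. Both KO GMP arrays of that probe set, 14.2 and 14.98, were below the floor. The third Slamf1 probe set stayed between 9.84 and 31.9 on all arrays, around the floor, and is not read further. The fall from KO LSK to KO GMP was at least 4.35-fold on the second probe set (adjusted limma p 0.00789) and -2.09 ± 0.52 on the representative one (adjusted limma p 0.059). The first of these ended without KO GMP 1, at adjusted limma p 0.0591. In WT the same step was -1.16 ± 0.52 (adjusted limma p 0.299).

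**Figure D2:**
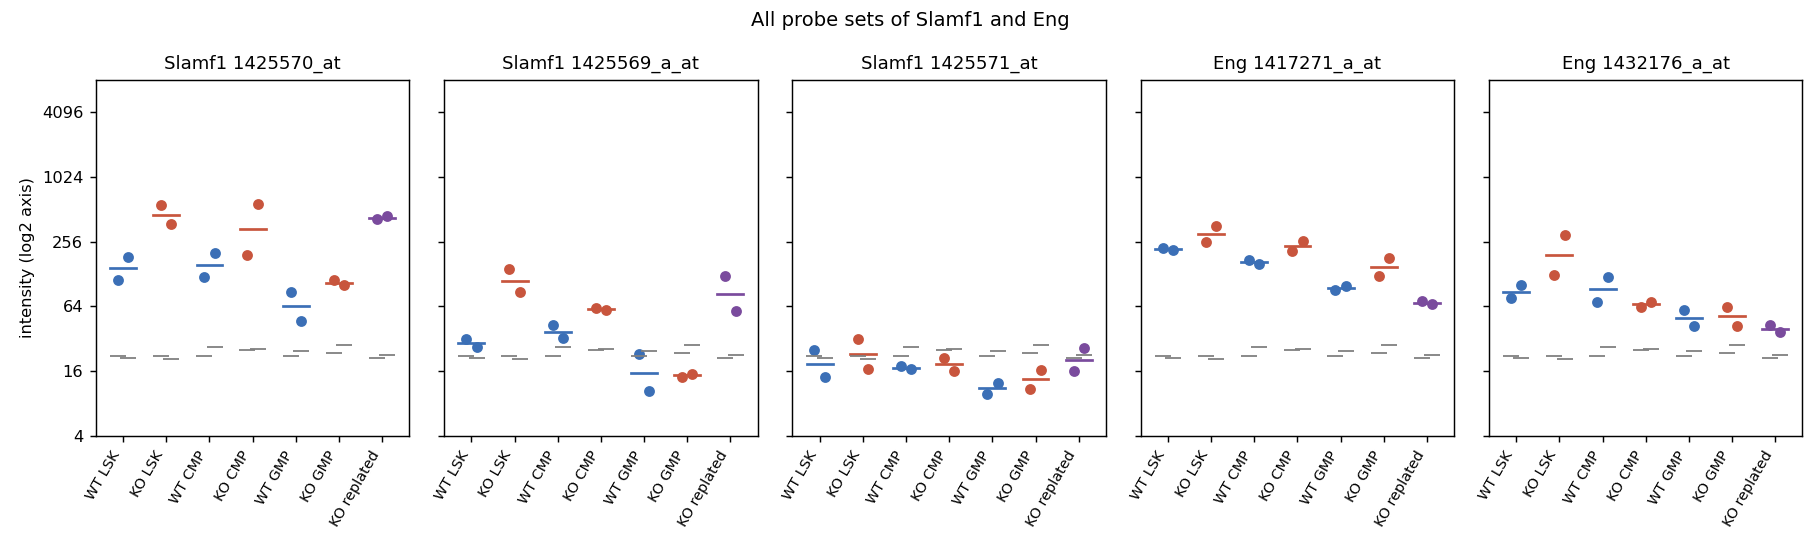
Intensity (log2 axis) on the 3 probe sets of Slamf1 and the 2 of Eng, with points for arrays, lines for the mean of log2 values and grey dashes for the floor. The first 2 Slamf1 probe sets have KO LSK above WT LSK on every array and replated cells near KO LSK, and the third lies around the floor.

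Counted over the 7 genes, 2 were called lower and 0 higher from WT LSK to WT CMP, where 0.815% of all probe sets were called in either direction. One step on, from WT CMP to WT GMP, 1 was called higher, with 0.411% of all probe sets called. Across the whole WT span from LSK to GMP, 1 was higher and 3 were lower, with 4.31% of all probe sets called. In KO cells 1 gene was lower from LSK to CMP (0.588% of all probe sets called), 1 higher from CMP to GMP (0.406%), and 1 higher and 3 lower from LSK to GMP (4.34%). The median log2 difference of the 7 genes from LSK to GMP was -1.22 in WT and -2.09 in KO, beside 0.06 and 0.05 for all probe sets. The WT and KO spans named the same 4 genes, Procr, Esam, Eng and Prom1. Procr, Esam and Eng are known stem cell markers, so a lower level outside LSK is part of how they became markers. This does not apply to Prom1, which was higher in GMP. A fit of only the 4 arrays compared called none of the 7 genes in any of these 6 steps, with adjusted limma p from 0.0747 to 0.14 for the 4 genes of the WT span. The differences themselves were the same in that fit, which has fewer degrees of freedom to estimate the spread.

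**Figure D3:**
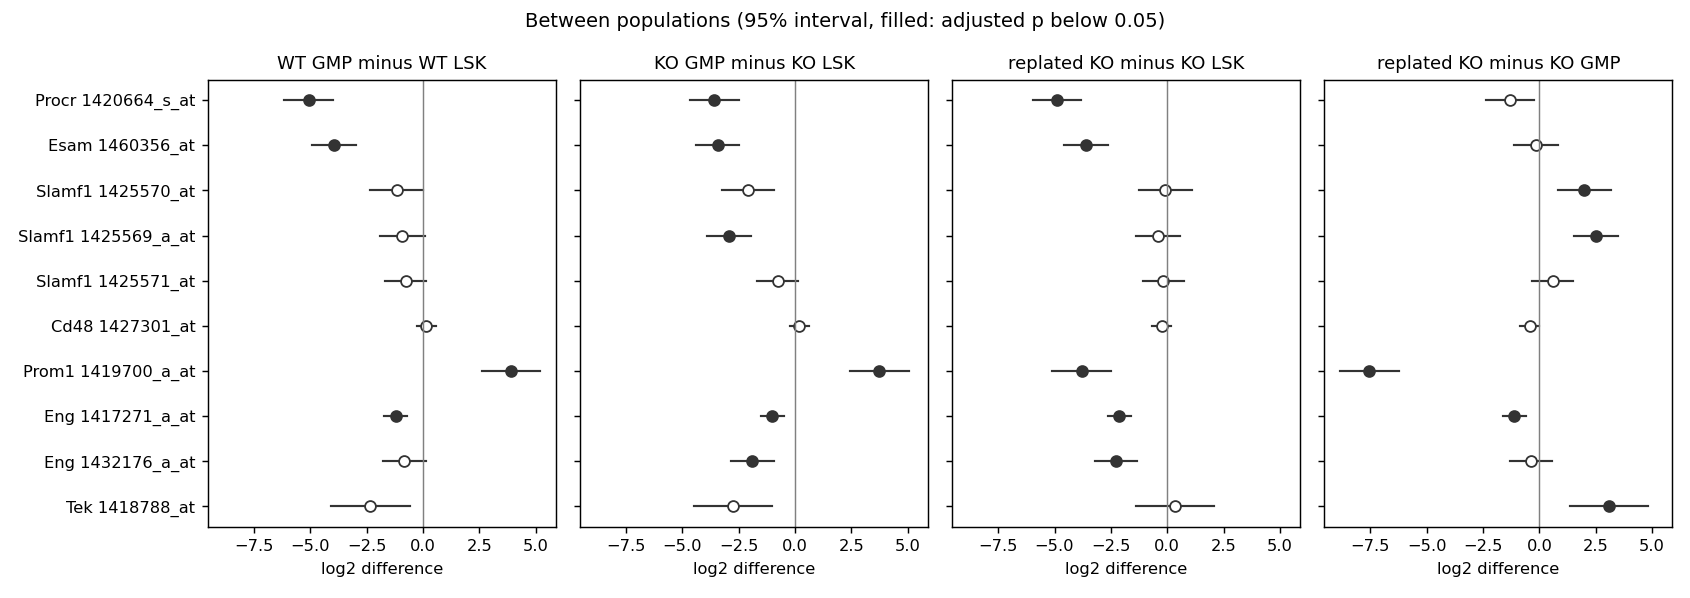
Log2 difference with its 95% interval for the 10 probe sets of the marker genes in 4 comparisons, filled where the adjusted p was below 0.05. Procr and Esam lie far below 0 from LSK to GMP and in replated cells against KO LSK, and are not called in replated cells against KO GMP. Prom1 is positive from LSK to GMP and strongly negative in replated cells, and Slamf1 and Tek are called higher in replated cells against KO GMP.

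No marker gene was called between KO and WT in sorted cells. These groups differed in Tet2, which encodes an enzyme that oxidises 5-methylcytosine in DNA, and also in the sex pattern given above. In the average over LSK, CMP and GMP 0 of 7 genes were called, where 0.249% of all probe sets were. Within LSK the count was 0 of 7 (0.295% of all probe sets called), within CMP 0 of 7 (0.0844%) and within GMP 0 of 7 (0.0711%). At an unadjusted limma p below 0.05 were 2 of 7 genes in the average, beside 3959 of 45037 probe sets. The counts at that cut were 1 gene in LSK beside 4419 probe sets, 0 in CMP beside 2774 and 2 in GMP beside 1957. The 2 genes that stood nearest in the average were Slamf1 and Eng.

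Slamf1 had the largest averaged difference of the 7 genes. Averaged over the 3 populations the representative probe set differed by 1.16 ± 0.30 log2 units, KO above WT, 2.24-fold (adjusted limma p 0.25), with a 95% interval from 0.49 to 1.84. The second probe set gave 0.85 ± 0.25 (adjusted limma p 0.321). In LSK the 2 probe sets gave 1.66 ± 0.52 (adjusted limma p 0.308) and 1.93 ± 0.44 (3.81-fold, adjusted limma p 0.14). In CMP they gave 1.10 ± 0.52 (adjusted limma p 0.829) and 0.71 ± 0.44 (adjusted limma p 0.879). In GMP the representative one gave 0.73 ± 0.52 (adjusted limma p 1), and the second one was at or near the floor. The KO arrays lay above the WT arrays on both probe sets in LSK, on the second alone in CMP, and on the representative alone in GMP. Summed megakaryocyte markers, of another cell lineage that LSK sorts can hold, were 3553 to 4172 in KO LSK and 2088 to 2685 in WT LSK, and their part in the Slamf1 values was not tested. Summed lymphoid markers moved the other way in LSK, 9487 to 9931 in KO and 15856 to 16783 in WT, and this was likewise not tested.

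Eng gave the smaller but tighter difference. The representative probe set differed by 0.53 ± 0.13 in the average, 1.44-fold (adjusted limma p 0.22), with an interval from 0.24 to 0.82. It was 0.46 ± 0.22 in LSK (adjusted limma p 0.564), 0.47 ± 0.22 in CMP (adjusted limma p 0.831) and 0.66 ± 0.22 in GMP (adjusted limma p 1). In each of the 3 populations both KO arrays were above both WT arrays, a pattern that 1.08% of all probe sets showed. The second Eng probe set did not repeat it, at 1.13 ± 0.42 in LSK (adjusted limma p 0.398), -0.45 ± 0.42 in CMP (adjusted limma p 0.94) and 0.06 ± 0.42 in GMP (adjusted limma p 1). Its average was 0.25 ± 0.24 (adjusted limma p 0.818).

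None of the other 5 genes had an unadjusted limma p below 0.05 in the average. Esam was -0.95 ± 0.43 in KO LSK against WT LSK (adjusted limma p 0.515), both KO arrays below both WT arrays, and -0.54 ± 0.25 in the average (adjusted limma p 0.58). Procr averaged 0.24 ± 0.27 (adjusted limma p 0.849), with GMP as the one population above 0 (adjusted limma p 1), where 1 of 4 arrays was above the floor and no fold is given. Cd48 averaged 0.14 ± 0.11 (adjusted limma p 0.762) with an interval from -0.10 to 0.38, the narrowest of the 7 genes. Prom1 averaged -0.21 ± 0.33 (adjusted limma p 0.905) and Tek 0.14 ± 0.44 (adjusted limma p 0.958). The KO arrays of Tek were above WT in LSK and below it in CMP, at 0.87 ± 0.77 and -0.89 ± 0.77.

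Arrays that do not overlap are common at this size. Of the 10 probe sets, 6 had KO and WT arrays apart in LSK, 4 in CMP and 4 in GMP, where 33.7%, 36.4% and 35.2% of all probe sets did. The differences of the KO effect between populations were called for 0 of 7 genes in LSK against CMP, in LSK against GMP and in CMP against GMP, where 0%, 0.00888% and 0% of all probe sets were called. At an unadjusted limma p below 0.05 none of the 7 representative probe sets passed in any of these 3. Of all 45037 probe sets, 2958, 2718 and 1800 did in the same order. Among the other probe sets, Slamf1 in LSK against GMP gave 2.02 ± 0.62 (unadjusted limma p 0.00947, adjusted 0.609), with KO GMP below the floor, and Eng in LSK against CMP gave 1.59 ± 0.59 (unadjusted limma p 0.0244, adjusted 0.681).

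**Figure D4:**
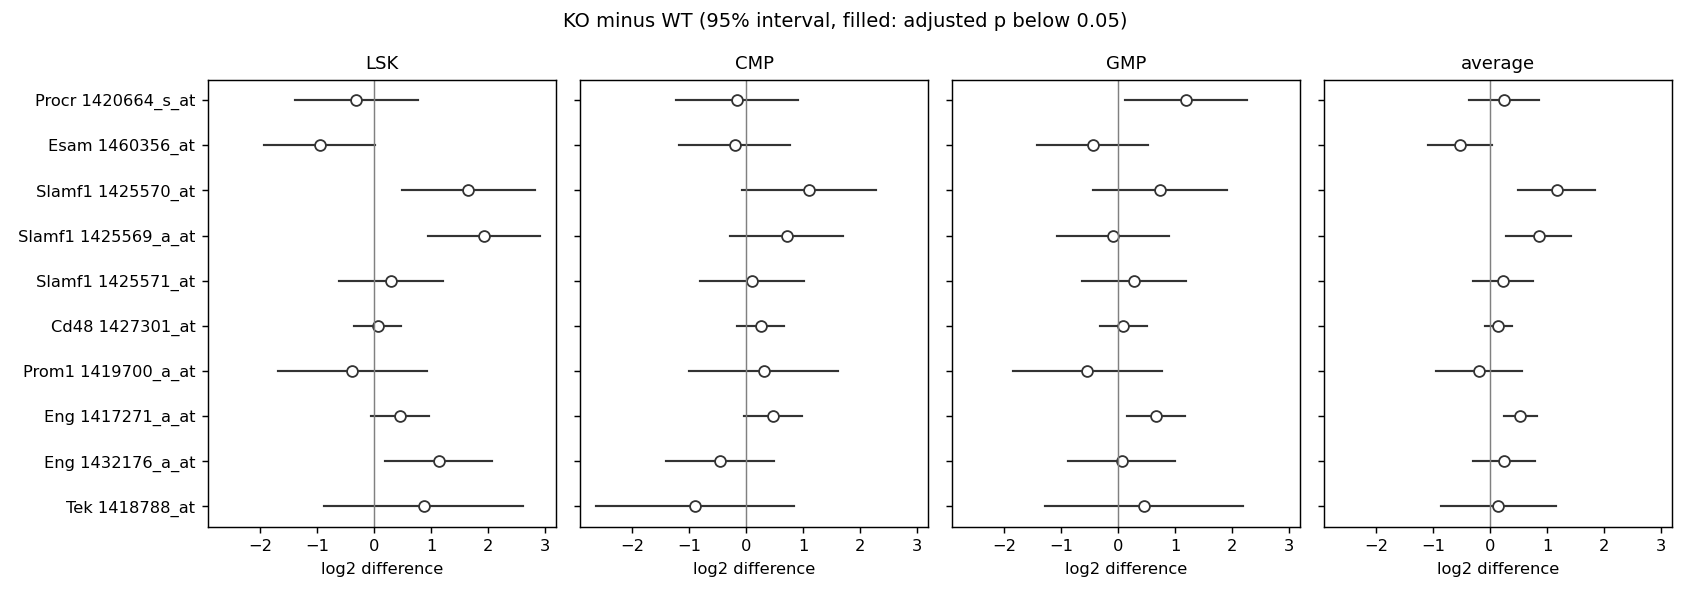
Log2 difference of KO minus WT with its 95% interval for the 10 probe sets in LSK, CMP and GMP and in their average. No point is filled, since no adjusted p was below 0.05. The intervals that exclude 0 in the average are those of the representative Eng probe set and of 2 Slamf1 probe sets.

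Replated KO cells had high levels of some of these markers and others at the floor. Procr measured 15.2 and 16.6, Esam 20.2 and 23.6, and Prom1 8.49 and 6.77. All but 1 of these 6 values were at or below the floor. Eng measured 71.3 and 66.8, below every sorted array on that probe set. By contrast Slamf1 measured 414 and 441 on the representative probe set and 121 and 57.6 on the second. Tek measured 1188 and 1003, above all 12 sorted arrays, but KO LSK 2 at 1002 was almost level with the lower one. Cd48 measured 3129.7 and 2862.

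Against KO LSK, 4 genes were called lower and 0 higher, where 19% of all probe sets were called. Procr was at least 21.5-fold lower (adjusted limma p 0.000106), Esam 12.1-fold lower (log2 -3.60 ± 0.43, adjusted limma p 0.000369) with 1 of 2 replated arrays at or below the floor, Prom1 at least 4.86-fold lower (adjusted limma p 0.00159) and Eng 4.36-fold lower (log2 -2.12 ± 0.22, adjusted limma p 0.000175). These calls held without each array in turn. For Slamf1 the difference was -0.09 ± 0.52 (adjusted limma p 0.943), with an interval from -1.26 to 1.08. Tek gave 0.33 ± 0.77 (adjusted limma p 0.838) and Cd48 -0.24 ± 0.18 (adjusted limma p 0.448).

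Against KO CMP, 5 genes were called lower and 0 higher, with 18.3% of all probe sets called. Eng fell 3.35-fold (adjusted limma p 0.000611) and Cd48 1.67-fold (log2 -0.74 ± 0.18, adjusted limma p 0.0214). Procr was at least 2.41-fold lower (adjusted limma p 0.0343), Prom1 at least 2.25-fold lower (adjusted limma p 0.0107) and Esam, with 1 of 2 replated arrays at or below the floor, 2.998-fold lower (adjusted limma p 0.0308). With values raised to the floor Procr and Prom1 lost their calls, and Cd48 lost its call without either KO CMP array or either replated array. Esam lost its call without the same 4 arrays, Procr without KO CMP 1 or either replated array, and Prom1 without KO CMP 1 or replated 2. Tek gave 2.35 ± 0.77 (adjusted limma p 0.0667).

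Against KO GMP, 2 genes were higher and 2 lower, with 19% of all probe sets called. Slamf1 was 4.01-fold higher (log2 2.00 ± 0.52, adjusted limma p 0.0248) and at least 3.27-fold higher on its second probe set (adjusted limma p 0.0032). Tek was 8.52-fold higher (log2 3.09 ± 0.77, adjusted limma p 0.0207). Prom1 was at least 64.8-fold lower (adjusted limma p 2.19e-05) and Eng 2.16-fold lower (log2 -1.11 ± 0.22, adjusted limma p 0.00728). The representative Slamf1 call ended without any 1 of the 4 arrays compared. Tek lost its call without KO GMP 1, where it was 1.74, or either replated array, and in a fit of only the 4 arrays compared (adjusted limma p 0.0714), and Eng without KO GMP 2 or replated 2. Prom1 and the second Slamf1 probe set held their calls without each array in turn. The 3 replated comparisons share the same 2 replated arrays and are not independent of each other.

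Markers of mast cells were high in the replated cells. The summed intensity of 11 measured mast cell and basophil genes was 76405 to 78030 there and 6729 to 10624 in the sorted groups, with all 11 above the floor. The mast cell protease gene Cma1 stood at 15427, the IgE receptor chain gene Fcer1a at 14201 and the carboxypeptidase gene Cpa3 at 13790. Summed neutrophil granule genes were 163 to 177 and summed lymphoid genes 337 to 353. The part of this makeup in the marker values was not tested. Endothelial cells also use Tek, Eng, Procr and Esam, and the endothelial genes Cdh5, Cldn5 and Sox17 did not exceed the floor on any of the 14 arrays. Of the whole list of 12 endothelial genes 4 to 9 were above the floor per array, and the sum was 2490 to 2600 in replated cells, with Vwf at 1619 and Pecam1 at 691, 1955 to 2549 in WT LSK, 1323 to 2304 in KO LSK and 905 to 1631 in the CMP and GMP groups. The part of these genes in the marker values was not tested.

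Genes of the same pathways moved only in part with their members. None of the 5 pathway lists had a gene called between KO and WT in the average, among 8 SLAM genes, 7 TIE genes, 15 genes of the TGF-beta and BMP receptor complex, 6 protein C genes and 20 other surface molecules measured. Among the 8 SLAM genes 1 was called between KO LSK and WT LSK, where 0.295% of all probe sets were. Slamf9 was at or below the floor in both groups and Slamf7, Slamf8 and Sh2d1a in KO LSK, and the other 4 genes gave -0.04 for Cd244, -0.61 for Ly9, -0.07 for Cd84 and the called value for Slamf6. Slamf6, which encodes a receptor of lymphoid cells, changed by -1.91 ± 0.28 (3.75-fold, adjusted limma p 0.0385), while Slamf1 of the same family was positive and not called. The lymphoid genes Rag1 and Il7r were at 1036 and 714 in WT LSK and 107 and 138 in KO LSK, and their part in the Slamf6 value was not tested. From WT LSK to WT GMP, with 4.31% of all probe sets called, 3 of 8 SLAM genes were lower, among them Slamf6 at -2.40 ± 0.28 (adjusted limma p 0.00224) and Cd244, the CD48 receptor, at -1.34 ± 0.31 (adjusted limma p 0.045). In replated cells against KO LSK, with 19% of all probe sets called, 1 of 8 was higher, Cd84 at 1.44 ± 0.19 (adjusted limma p 0.000678), and 1 lower, Ly9, which went from 118 to below the floor (adjusted limma p 0.000348).

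TIE pathway genes separated from Tek in the replated cells. From WT LSK to WT GMP 2 of 7 were lower (4.31% of all probe sets called), the ligand gene Angpt1 at -2.23 ± 0.22 (adjusted limma p 0.00115) and the adaptor gene Dok2 at -1.70 ± 0.22 (adjusted limma p 0.00334). The same 2 were lower from KO LSK to KO GMP. In replated cells against KO LSK 3 of 7 were lower and 1 higher, where 19% of all probe sets were called. Tie1, the receptor that pairs with TIE2, measured a mean of 551 in KO LSK and 37.6 in replated cells, -3.87 ± 0.46 (14.6-fold, adjusted limma p 0.000346), where Tek was at 866 and 1092. Angpt1 gave -0.77 ± 0.22 (adjusted limma p 0.0399) and Dok2 -1.21 ± 0.22 (adjusted limma p 0.00417). The gene that was higher, Ptprb, was at or below the floor in both groups.

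Among the endoglin partners, 2 of 15 were lower from WT LSK to WT GMP, the TGF-beta receptor genes Tgfbr3 at -1.53 ± 0.24 (adjusted limma p 0.00851) and Tgfbr2 at -1.41 ± 0.25 (adjusted limma p 0.0148), beside 4.31% of all probe sets called. In replated cells against KO LSK 4 were higher and 3 lower, beside 19% of all probe sets called. Tgfbr1 gave 2.96 ± 0.28 (7.77-fold, adjusted limma p 7.94e-05) and Tgfbr2 1.35 ± 0.25 (adjusted limma p 0.00468), while Eng itself fell. Tgfbr3, the betaglycan gene and like endoglin a co-receptor, went from 1502 to below the floor (adjusted limma p 1.69e-07). Id1, a target gene of BMP signalling, gave -1.93 ± 0.53 (adjusted limma p 0.0324).

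In the protein C list 1 of 6 genes was higher and 1 lower from WT LSK to WT GMP, Thbd at 0.69 ± 0.16 (adjusted limma p 0.0427) and F2r at -1.02 ± 0.19 (adjusted limma p 0.0213), beside 4.31% of all probe sets called. Thbd encodes thrombomodulin, which activates protein C on cell surfaces, and F2r a thrombin receptor. In replated cells against KO LSK, with 19% of all probe sets called, 3 were higher, among them Pros1, the cofactor protein S gene, at 2.44 ± 0.19 (adjusted limma p 2.53e-05), and Thbd was lower at -2.17 ± 0.16 (adjusted limma p 1.41e-05). So Procr and Thbd fell together in replated cells but moved in opposite directions from WT LSK to WT GMP.

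Of 20 other surface molecules of stem and early progenitor cells 6 were lower and 0 higher from WT LSK to WT GMP, beside 4.31% of all probe sets called. Flt3, a cytokine receptor of multipotent progenitors, gave -3.19 ± 0.28 (9.15-fold, adjusted limma p 0.000603), Cd27 -1.46 ± 0.15 (adjusted limma p 0.00137), and Robo4 went from 160.2 to below the floor (adjusted limma p 0.00626). In KO cells 5 were lower and 1 higher over the same span, beside 4.34% of all probe sets called. Replated cells had 8 lower and 3 higher than KO LSK, beside 19% of all probe sets called. Cd27 went from 1687 to below the floor (adjusted limma p 7.29e-09) and Alcam from 6356 to 278 (adjusted limma p 5.62e-07), while the integrin genes Itgb3 and Itga2b rose by 3.48 ± 0.22 (adjusted limma p 5.08e-06) and 2.65 ± 0.25 (adjusted limma p 7.7e-05).

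**Figure D5:**
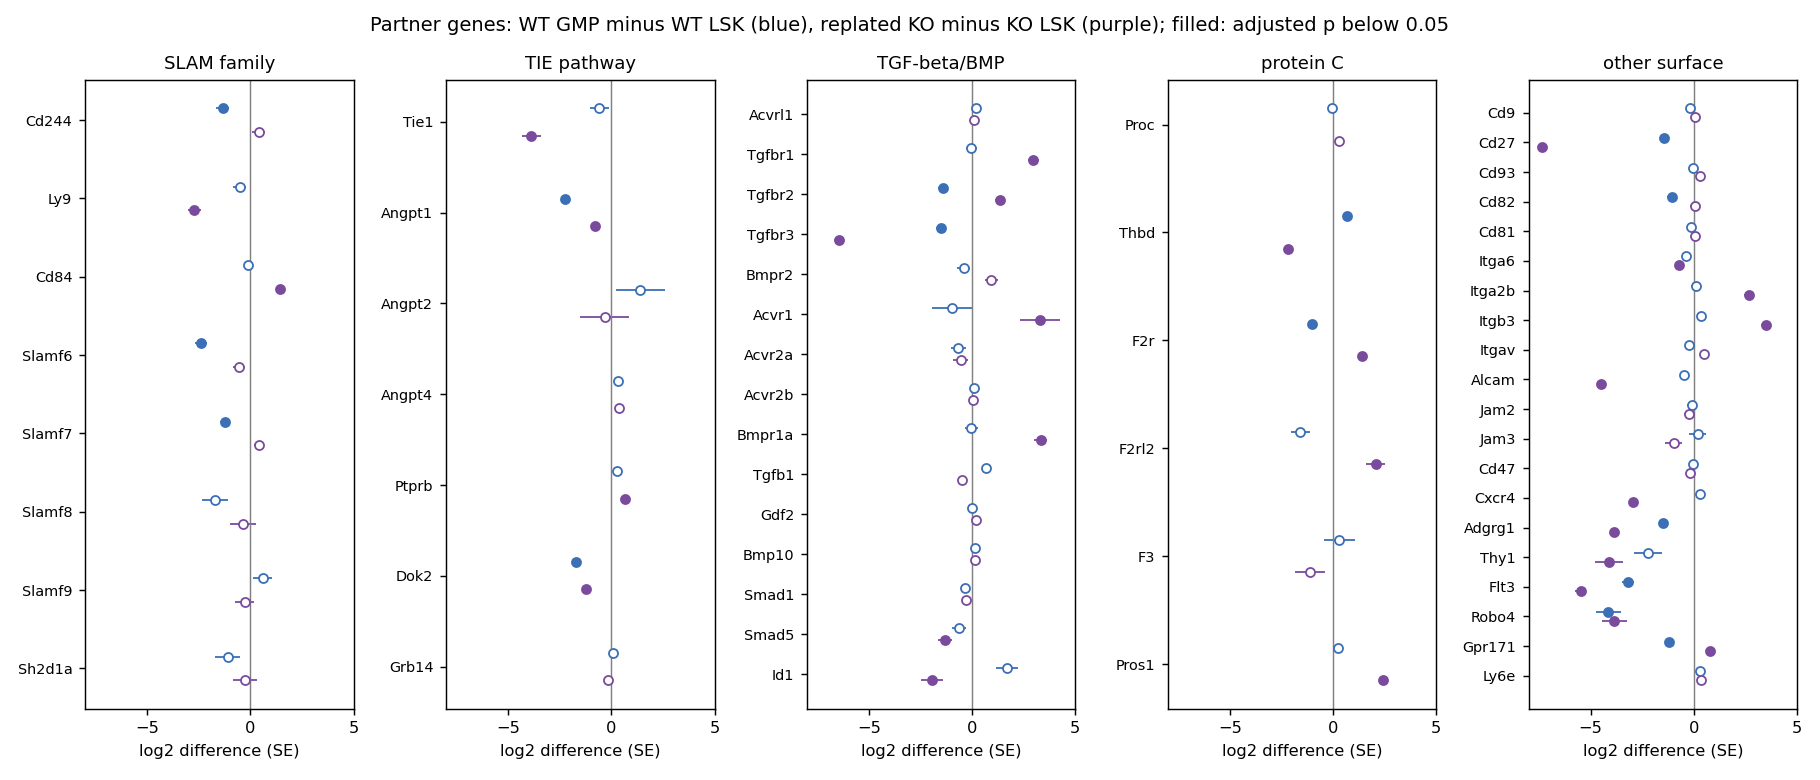
Log2 difference ± SE of the genes of 5 pathway lists in WT GMP minus WT LSK (blue) and replated KO minus KO LSK (purple), filled where the adjusted p was below 0.05. In replated cells Tie1, Tgfbr3, Thbd and Cd27 lie below 0 and Tgfbr1, Pros1 and Itgb3 above it.

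The genes most like each member were found by the Pearson correlation of log2 values over 14 arrays, among 13176 other genes. For Procr this was Chrnb1 (0.9709), for Esam Mn1 (0.9664), for Slamf1 Stat5b (0.9188), for Cd48 Polr1c (0.8772), for Prom1 Clec4a2 (0.9684), for Eng Dst (0.9621) and for Tek Sgms1 (0.9312). Over the 12 sorted arrays alone Chrnb1 and Sgms1 again came first, and the first for the others were Neu3 (0.9866), Mink1 (0.9138), Adat3 (0.9113), Anxa1 (0.9795) and Tgfbr2 (0.9436) in the same order. These values describe arrays that share 7 groups and carry no test.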

How the data were processed

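Total RNA was amplified with the NuGEN Ovation system and hybridised to 14 arrays, 1 per sample, per the labels' protocols. The authors deposited linear intensity values per probe set, made with RMA per the submitters' processing notes, while the software and its settings are not stated. Their log2 was taken with no further normalization. Of 45101 probe sets, 64 controls were left out. One mean per group was fitted in limma 3.58.1 (R 4.3.3) over 45037 probe sets, with 7 residual and 2.02 prior degrees of freedom, and 16 comparisons were drawn from it. The code was tested on simulated data. Symbols came from the platform annotation, which gives 34945 probe sets 1 gene, 932 several and 9211 none. All member probe sets were reported, and only some of the called pathway genes were named. The members and lists were chosen with earlier results of these data known, and the floor after the values were seen. Replicate numbers did not pair arrays: over 21 pairs of groups the correlation of same-numbered deviations ran from -0.0782 to 0.0749. The number of arrays limits the precision. Alternatives covered scaling, floor, offset, filter, arrays fitted, variance model, replicate block and each array left out.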

Additional observations from a re-analysis of the deposited data

Results flagged for a closer look

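Tek stood out for opposite movements in 2 populations. Both KO LSK arrays (748 and 1002) were above both WT LSK arrays (605 and 371), and both KO CMP arrays (313 and 146) were below both WT CMP arrays (414 and 379.9). The difference between these KO minus WT values was 1.76 ± 1.09 log2 units, and its own test did not pass (unadjusted limma p 0.139, adjusted 0.847).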

How the results depend on the processing

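No marker gene was called between KO and WT under any alternative run, and the lowest adjusted limma p there was 0.0556, for the second Slamf1 probe set in LSK with values raised to the floor. Replated minus KO CMP called 3 genes with values raised to the floor and 2 with 16 added to the intensities before log2. Fits of only the arrays compared called 0 genes in each of the 6 steps between sorted populations of 1 genotype. With the 12 sorted arrays only, an alternative chosen after seeing the data, WT CMP minus WT LSK called 1 gene and KO CMP minus KO LSK 0. Leaving out each array in turn gave 0 to 2 genes for WT CMP minus WT LSK, 0 to 1 for KO CMP minus KO LSK, 0 to 1 for KO GMP minus KO CMP, 2 to 5 for KO GMP minus KO LSK, 1 to 6 for replated minus KO CMP and 1 to 4 for replated minus KO GMP. Of 160 values, 10 probe sets by 16 comparisons, 50 changed sign under 1 or more alternatives, and 0 of these were called. Among the values printed above these were averaged KO minus WT of Procr without KO GMP 1, of Prom1 without KO CMP 2 and of Tek without KO CMP 1, WT GMP 2 or KO GMP 2, and replated minus KO LSK of Slamf1 without KO LSK 1 and of its second probe set without replated 2, and also KO minus WT in GMP of the second Eng probe set and WT GMP minus WT LSK of Cd48. Over the arrays left out these ran from -0.018 to 0.50 for Procr, -0.46 to 0.046 for Prom1, -0.31 to 0.59 for Tek, -0.38 to 0.21 for Slamf1, -0.95 to 0.13 for its second probe set, -0.23 to 0.35 for Eng and -0.089 to 0.39 for Cd48. The cause was not tested. The replicate numbers share only a number, and a fit with the replicate number as a block gave the same counts of called genes, 4 for WT GMP minus WT LSK, 5 for replated minus KO CMP and 0 for each KO minus WT comparison. In that fit the second Eng probe set from KO LSK to KO GMP had an adjusted limma p of 0.0518. Signal near the floor limits Procr and Esam in GMP and replated cells, Prom1 in replated cells and the second Slamf1 probe set in GMP.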

Other observations

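The genes around Slamf1 on the chromosome were looked at with it. Slamf1 lies in a cluster of SLAM genes, and Cd48 is among them. Of 31 other protein-coding genes in a window that runs from 15 genes before this pair to 15 after it, 26 had a probe set and 23 were above the floor in 1 or more sorted groups. None of the 23 was called between KO and WT in the average of the 3 populations. Their averaged differences were positive for 12 of the 23 genes, with a median of 0.02 log2 units, where Slamf1 had 1.16 ± 0.30. The neighbour Slamf6 measured a mean of 151 in WT LSK and 40.2 in KO LSK.

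The CD48 receptor gene Cd244 stood at a mean of 1278 in WT LSK, 504 in WT GMP and 1647 in replated cells. The ligand gene Cd48 was at its lowest mean in replated cells. Against KO LSK neither was called, with Cd244 at 0.40 ± 0.31 (adjusted limma p 0.452) and Cd48 at -0.24 (adjusted limma p 0.448). Only Cd244 was called against KO GMP (adjusted limma p 0.00766, Cd48 0.165). Only Cd48 was called against KO CMP (adjusted limma p 0.0214, Cd244 0.821). In replated cells the sort gate genes Kit and Fcgr3 stood at 5230.3 and 5355, and in WT GMP at 1372 and 4636. Relative to KO GMP, replated cells had Kit higher by 1.88 ± 0.19 log2 units (adjusted limma p 0.000142). Fcgr2b was lower there, at -1.55 ± 0.21 (adjusted limma p 0.000863). Fcgr3 at 0.54 ± 0.22 (adjusted limma p 0.135) and Cd34 at -0.14 ± 0.15 (adjusted limma p 0.637) were not called.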
